A study of Mus musculus with 2 samples.

Results

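Meis1, Meis2, Meis3, Pbx2, Pbx3, Pbx4, Pknox1 and Pknox2 are genes of the TALE homeobox class, whose proteins act as DNA-binding cofactors. They were taken by symbol, matched to the Ensembl gene identifier, and are 8 of the 43346 mouse Ensembl genes in the tables. The data are total RNA sequencing of blood stem cells (hematopoietic stem cells, HSC), in 2 libraries made from 100 cells each. Both libraries came from male C57BL/6J mice, adult at 5 to 6 weeks of age, with no genetic change or treatment named in the labels, so there is a single group and no comparison between conditions. The labels call the libraries biological replicates 1 and 2 and give them separate biosample identifiers but 1 donor identifier, so part of their spread may be technical. No source used here gives the gates used for sorting. Expected counts on Ensembl genes, the estimated number of reads per gene, summed to 48307557 in replicate 1 and 28945011 in replicate 2. With 2 libraries of 1 group no test was possible, and every difference below is a description of these libraries.

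TALE homeodomains carry a short extra loop between their first helices. Meis and Pknox proteins bind Pbx proteins through their amino-terminal parts, and such pairs, often together with a Hox protein, bind DNA at longer and more specific sites than a Hox protein alone. Meis1 is required for the maintenance of adult blood stem cells and acts with Hoxa9 in leukaemia, while Pknox1, also called Prep1, is a ubiquitous relative that competes for the same Pbx partners.

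All 8 genes are annotated as protein coding on GRCm38, the build also called mm10. In GENCODE M21 Meis1 (ENSMUSG00000020160) lies at chr11:18879817-19018985 on the minus strand, Meis2 (ENSMUSG00000027210) at chr2:115863064-116065839 on the minus strand and Meis3 (ENSMUSG00000041420) at chr7:16175090-16186504 on the plus strand. Pknox1 (ENSMUSG00000006705) lies at chr17:31564734-31607693 on the plus strand and Pknox2 (ENSMUSG00000035934) at chr9:36890982-37147407 on the minus strand. Pbx2 (ENSMUSG00000034673) lies at chr17:34591266-34597400 on the plus strand, Pbx3 (ENSMUSG00000038718) at chr2:34171457-34373142 on the minus strand and Pbx4 (ENSMUSG00000031860) at chr8:69832491-69872292 on the plus strand.

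The piece of coding sequence that the genes share is shown because it is what makes them 1 family and because the results below turn on whether a transcript encodes it. It runs for 90 bases, or 30 codons, from the codons of the loop's proline, tyrosine and proline, printed in capitals, to the arginine that ends the motif of tryptophan, phenylalanine, any residue, asparagine, any residue and arginine in the helix that reads DNA. It is called the homeodomain core below, and each sequence is read 5′ to 3′ from the GENCODE M21 transcript with the longest coding sequence that holds it.
Meis1: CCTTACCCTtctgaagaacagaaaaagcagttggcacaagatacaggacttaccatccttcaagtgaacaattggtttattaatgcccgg
Meis2: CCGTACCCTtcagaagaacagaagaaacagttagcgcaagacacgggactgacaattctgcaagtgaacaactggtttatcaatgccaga
Meis3: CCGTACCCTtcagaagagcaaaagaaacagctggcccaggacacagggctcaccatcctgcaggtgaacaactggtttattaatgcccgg
Pbx2: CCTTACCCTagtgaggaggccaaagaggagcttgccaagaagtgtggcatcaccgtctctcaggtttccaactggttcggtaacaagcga
Pbx3: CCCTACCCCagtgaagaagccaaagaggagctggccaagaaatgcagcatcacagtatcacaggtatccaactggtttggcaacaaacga
Pbx4: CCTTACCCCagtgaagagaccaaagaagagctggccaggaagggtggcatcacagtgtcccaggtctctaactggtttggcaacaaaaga
Pknox1: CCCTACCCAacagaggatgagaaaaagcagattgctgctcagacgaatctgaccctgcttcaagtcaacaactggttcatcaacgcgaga
Pknox2: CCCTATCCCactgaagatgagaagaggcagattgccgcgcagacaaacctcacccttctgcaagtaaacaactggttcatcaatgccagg

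The translated cores of Meis1, Meis2 and Meis3 were identical in all 30 residues, although their bases matched at only 74 or 75 of 90 positions. Pknox1 and Pknox2 shared 29 of 30 residues. Among the Pbx genes, Pbx2 and Pbx3 shared 29, Pbx2 and Pbx4 shared 27, and Pbx3 and Pbx4 shared 26. Between families the Meis1 core shared 22 residues with Pknox1 and 18 with Pbx2, and each Pbx core shared 14 with each Pknox core. The cores of Meis1, Meis2 and Meis3 therefore differ as RNA but encode the same stretch of protein. In the genome the Meis1 core lies at chr11:18885636-18905762 and the Pbx4 core at chr8:69866541-69870055, each divided by an intron.

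Meis1 was the most abundant of the 8 genes in both libraries, at 73.5 ± 18.7 TPM (SD, n = 2). TPM, the unit of the tables, is a level per transcript length scaled to a fixed total per library. A gene was called detected in a library if its level reached 1 TPM and its expected count reached 10. By that rule 5 of the 8 genes were detected in replicate 1, where 47.6% of 21474 protein coding genes were, and 6 in replicate 2, where 50.1% were. Meis1, Pbx2, Pbx3, Pbx4 and Pknox1 were detected in both, as were 45.5% of coding genes. In each family at least 1 gene was detected in both libraries and, in the Meis and Pknox families, at least 1 had no counts at all.

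The level of Meis1 was 86.7 TPM in replicate 1 against 60.2 TPM in replicate 2, and the counts behind these levels were 9371 and 3590.5. Among the 9780 coding genes detected in both libraries it ranked 575th and 780th, at percentiles 94.1 and 92.0. Its level was higher in replicate 1, by 0.52 on the log2(TPM + 1) scale, which is close to the median absolute difference of 0.53 over the 12862 genes detected in either library. The deposited interval around the posterior mean ran from 82.8 to 86.8 TPM in replicate 1 and from 55.4 to 59.9 TPM in replicate 2. These intervals, whose level is not stated, cover the assignment and counting of reads, and the gap between the libraries was wider than both. The TPM of replicate 2 itself lay just above its interval, which was computed around the posterior mean. The coding genes nearest to Meis1 in level over the 2 libraries were Ptprc, which encodes the pan-leukocyte surface protein CD45, at 87.7 and 60.7 TPM, Mia2 at 88.4 and 59.3 TPM, and Tns1 at 89.1 and 60.1 TPM.

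Meis2, best known from limb, neural and heart development, had no counts in either library. A count of 0, read as fewer than 3 counts, allows up to 0.0576 TPM in replicate 1 and 0.102 TPM in replicate 2, so Meis1 was at least 1506-fold higher in replicate 1 and at least 589-fold higher in replicate 2. These limits cover counting error only. The deposited posterior mean, which adds a prior weight to every transcript, was nevertheless 1.05 and 1.86 TPM for Meis2, spread over its 19 annotated transcripts. Meis3 had no counts in replicate 1, with a limit of 0.0854 TPM, and 31 in replicate 2, or 2.02 TPM. That makes Meis3 at least 23.7-fold higher in replicate 2 and the only gene of the 8 detected in 1 library alone. Its counts in replicate 2 lay mostly on transcripts that encode no homeodomain core, and the transcripts that encode it held 0.01 TPM. Transcripts of any kind whose sequence holds the core bases, translated or not, summed to 1.06 TPM, or 52.7% of its TPM in replicate 2.

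Pknox1 had 8.57 TPM in replicate 1 against 18.6 TPM in replicate 2, a mean of 13.6 ± 7.09 TPM (SD, n = 2), from 1046 and 754 counts. It was higher in replicate 2 in TPM, though fewer reads were counted in that shallower library. Pknox2, a relative expressed mainly in the nervous system, had no counts in either library, which allows up to 0.0586 TPM in replicate 1 and 0.104 TPM in replicate 2. Set against these limits, the TPM of Pknox1 was at least 146-fold higher than that of Pknox2 in replicate 1 and at least 178-fold higher in replicate 2. The limits cover counting error of Pknox2 only. In replicate 2 the fold includes 4.08 TPM of Pknox1 from 3 counts on a transcript of 161 bases, and is lower without them. The deposited posterior means were 9.20 and 19.4 TPM for Pknox1 and 0.51 and 0.89 TPM for Pknox2, which are much closer.

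Pbx2, a broadly expressed partner of Hox and Meis proteins, had 7.87 TPM in replicate 1 against 18.8 TPM in replicate 2, a mean of 13.3 ± 7.74 TPM (SD, n = 2), from 744 and 609.8 counts. Pbx3, a partner of Meis1 and Hoxa9 in leukaemia, stood at 2.58 and 11.6 TPM, a mean of 7.09 ± 6.38 TPM (SD, n = 2), from 92 and 357 counts. Both were higher in replicate 2, and Pbx3 was the lowest of the 5 genes detected in both libraries in each of them. Pbx4, whose expression is known best from testis, went the other way, with 84.9 TPM in replicate 1 against 14.01 TPM in replicate 2, a mean of 49.5 ± 50.1 TPM (SD, n = 2), from 1099 and 183 counts. Its rank among the coding genes detected in both libraries stood at percentile 93.9 in replicate 1 and 54.6 in replicate 2, while that of Pbx3 stood at 7.47 and 47.4.

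The order of the genes was therefore Meis1, Pbx4, Pknox1, Pbx2, Pbx3 in replicate 1 and Meis1, Pbx2, Pknox1, Pbx4, Pbx3, Meis3 in replicate 2. The lower of the Meis1 values lay above both values of Pbx2, Pbx3 and Pknox1, and the values of Meis1 and Pbx4 overlapped. The values of Pbx2 overlapped with those of Pbx3, Pbx4 and Pknox1, and those of Pknox1 with those of Pbx3 and Pbx4. Within each library, however, Pbx2 and Pknox1 both lay above Pbx3. The order of Pbx2, Pbx4 and Pknox1 among themselves changed between the libraries, so these genes did not differ beyond the spread of the libraries. Both values of Pbx3 lay below both values of Pbx4.

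**Figure D1:**
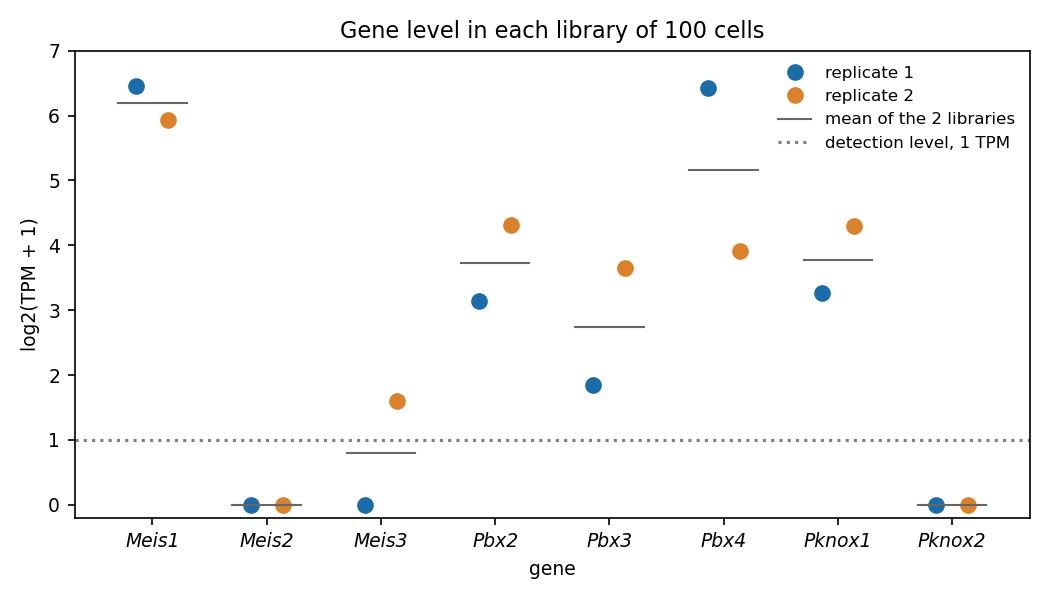
Level of each gene as log2(TPM + 1) in each library of 100 cells, with a line at the mean of the 2 libraries and a dotted line at 1 TPM. Meis1 is high in both libraries, at 86.7 and 60.2 TPM, Pbx4 is as high only in replicate 1, and Meis2 and Pknox2 lie at 0 in both.

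More than 2-fold differences between the libraries, on the log2(TPM + 1) scale, were frequent in the family. Pbx4 was higher in replicate 1 by 2.52, the only such gene, where 13.1% of the genes detected in either library were. Meis3, Pbx2, Pbx3 and Pknox1 were over 2-fold higher in replicate 2, where 14% were, and the values of replicate 1 minus replicate 2 were -1.16 for Pbx2, -1.82 for Pbx3 and -1.03 for Pknox1. For Pknox1 the call depends on 4.08 TPM in replicate 2 that came from 3 counts on a transcript of 161 bases. The median difference of all these genes was 0.10. On the CPM scale of expected counts with TMM factors, which does not divide by transcript length, Pbx2 stood at -0.61 and Pknox1 at -0.44 and neither passed 2-fold, while Pbx3 at -2.35 and Pbx4 at 1.52 did. DESeq2 size factors gave -0.62, -0.45, -2.35 and 1.504 for the same genes.

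Markers of other blood cells also differed between the libraries. Of 7 mature neutrophil markers none was detected in replicate 1, where they summed to 0.5 TPM, and 6 were in replicate 2, where they summed to 315 TPM, with Retnlg at no counts in either. The 6 early myeloid markers summed to 651 and 1655 TPM, 2 and 6 of 6 B cell markers were detected with sums of 9.08 and 32.6 TPM, and 6 and 3 of 6 T and NK cell markers with sums of 58.4 and 64.9 TPM. All 7 erythroid markers were detected in both libraries, with sums of 2127 and 1872 TPM, and 4 and 5 of 7 megakaryocyte markers, with sums of 22.3 and 49.5 TPM. Of the 10 stem cell markers 9 were detected in both, with Slamf1 in replicate 1 only. The 10 together summed to 511 TPM in replicate 1 and 377 TPM in replicate 2. Stromal markers summed to 4.52 and 6.13 TPM, with 1 of 7 detected and 4 at no counts in either library, and endothelial markers to 39.8 and 27.6 TPM, with 3 and 4 of 6 detected and Cdh5 and Kdr at no counts. The part of these cells in the differences of Meis3, Pbx2, Pbx3, Pbx4 and Pknox1 was not tested. In such bulk libraries fewer cells of a type and less RNA per cell cannot be told apart.

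The transcripts that carried the signal differed between the genes, and for Pbx4 this bears directly on its level. The 8 genes have 80 annotated transcripts in the tables, of which 39 had signal in either library. The effective length, the mean length the reads were assigned to and that TPM divides by, was 3368 bases for Meis1 and 403 bases for Pbx4 in replicate 1. There Meis1 had 8.53-fold more counts than Pbx4 on 8.35-fold longer transcripts, so that their TPM differed by a factor of only 1.02. In replicate 2, where the effective lengths were 3285 and 719.9 bases, Meis1 had 19.6-fold more counts and 4.30-fold more TPM.

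Only Pbx4-201, a transcript of 1560 bases, encodes the homeodomain core of Pbx4, and it held 1.86 TPM in replicate 1 and 1.46 TPM in replicate 2. These are 2.19% and 10.4% of the TPM of Pbx4, and on this measure the libraries differed by 0.22 in log2(TPM + 1), against 2.52 for the whole gene. The TPM of Pbx4 in replicate 1 lay on Pbx4-208, a retained-intron transcript of 708 bases, at 34.04 TPM, on Pbx4-203, a processed transcript of 281 bases, at 26.8 TPM, and on Pbx4-202, a coding fragment of 375 bases, at 17.1 TPM. In replicate 2 Pbx4-208 led again, at 6.61 TPM, and Pbx4-203 and Pbx4-202 had none. Pbx4-208 is not annotated as coding, but its sequence holds all 90 bases of the core. Transcripts of any kind whose sequence holds those bases summed to 35.9 TPM in replicate 1 and 10.6 TPM in replicate 2. In TPM the signal over the homeodomain exons was thus assigned mostly to a short transcript with a retained intron, and not to Pbx4-201. How reads are shared between such overlapping transcripts is an estimate.

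For Meis1 the division was nearly the same in both libraries. Retained-intron transcripts held 44.5% and 44.1% of its TPM, processed transcripts 19.9% and 23.0%, and transcripts that encode the homeodomain core 35.5% and 31.8%, or 33.7 ± 2.59% (SD, n = 2). In counts the core-encoding transcripts had a larger share, 54.7% and 51.9%, since they are longer. In TPM they stood at 30.8 in replicate 1 and 19.2 in replicate 2. The leading transcript in both libraries was Meis1-205, with 24.4% and 24.9%, which has 5 exons and ends 9.20 kb from the 5′ end of the gene, far before the core at 113 to 133 kb. Meis1-204, the other retained-intron transcript, held 20.1% and 19.2% and ends at 32.2 kb. Meis1-203, a processed transcript that runs through the core exons, held 19.9% and 23.0%.

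**Figure D2:**
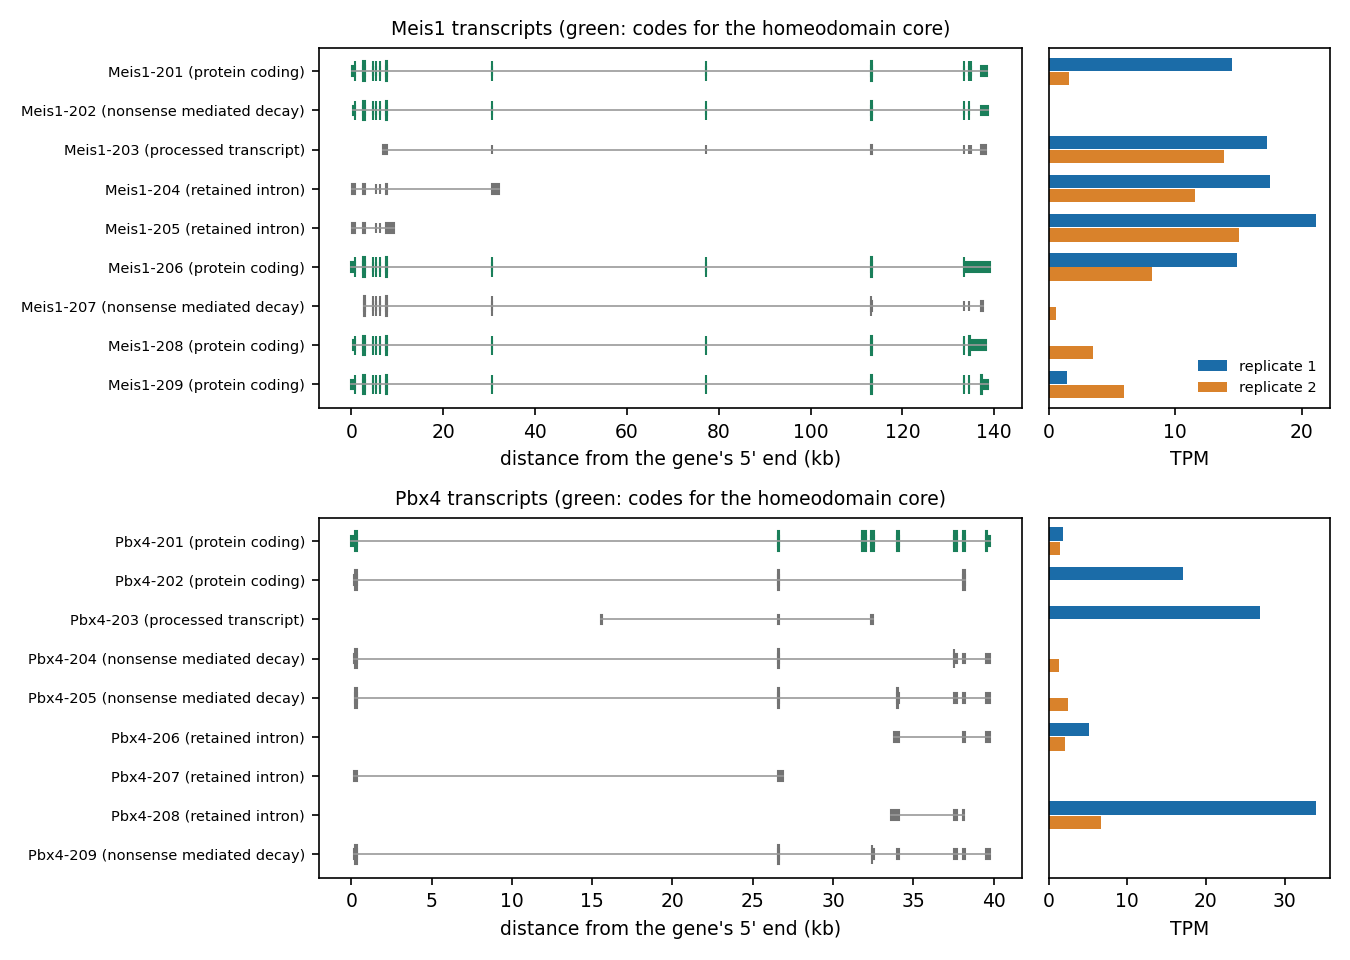
Exons of the annotated Meis1 and Pbx4 transcripts by distance from the 5′ end of the gene in kb (tall boxes, coding; low boxes, non-coding; green, transcripts that code for the homeodomain core), with bars of TPM in each library on the right. Meis1 has similar bars in both libraries for its transcripts Meis1-203, Meis1-204 and Meis1-205, and Pbx4 has its longest bar on the short transcript Pbx4-208, at 34.04 and 6.61 TPM.

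Meis1 coding transcripts differ at the end of the protein, downstream of the homeodomain, in the part known to recruit coactivators. Meis1-201, of 390 residues, Meis1-208, of 385, and Meis1-209, of 465, share 1115 coding bases, and Meis1-206, of 370 residues, leaves them after 1024. The bases around the point of departure are shown for these forms, with the last 15 shared bases in lower case and the first bases of each form's own coding sequence in capitals. The capitals lie at chr11:18884037-18884081 for Meis1-201, chr11:18885548-18885592 for Meis1-206, chr11:18884346-18884385 for Meis1-208 and chr11:18881877-18881921 for Meis1-209, all on the minus strand.
Meis1-201: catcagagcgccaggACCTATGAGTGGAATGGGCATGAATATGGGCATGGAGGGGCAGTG
Meis1-206: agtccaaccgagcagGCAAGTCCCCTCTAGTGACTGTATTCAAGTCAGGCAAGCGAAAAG
Meis1-208: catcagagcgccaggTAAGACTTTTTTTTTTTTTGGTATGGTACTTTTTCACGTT
Meis1-209: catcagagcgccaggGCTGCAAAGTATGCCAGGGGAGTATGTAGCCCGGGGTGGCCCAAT

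Meis1-201 held 14.5 TPM in replicate 1 and 1.60 TPM in replicate 2. Meis1-206 held 14.9 and 8.16 TPM and was the leading coding form in both libraries. Meis1-209, the longest form, held 1.42 and 5.95 TPM, and Meis1-208 had none in replicate 1 and 3.47 TPM in replicate 2. The sum of the coding forms was the steadier quantity, and the forms that share the first 1115 bases traded places between the libraries. Unclassified annotated genes on the same strand overlap Meis1. Among them Gm37818, at chr11:18884623-18887791, spans the end of the homeodomain core and the bases of Meis1-206 printed in capitals. No source used here states how strand and shared reads were handled, so reads there may be divided between these genes and Meis1.

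The other 3 genes had a different leading transcript by TPM in each library, and in replicate 2 no single transcript held most of their TPM. All of the Pbx2 TPM lay on Pbx2-201, of 3068 bases, in replicate 1. In replicate 2 it was divided between Pbx2-205, of 1186 bases, at 41.8%, and Pbx2-201 at 37.4%, and transcripts that encode the core held 7.87 and 16.8 TPM. Pbx2-201 alone stood at 7.87 and 7.04 TPM, so the higher Pbx2 level in replicate 2 lay on other transcripts. The neighbouring gene Gpsm3, on the same strand, overlaps the first exon of Pbx2-203, which held 10.15% of the Pbx2 TPM in replicate 2 and none in replicate 1. Pbx2-201 and Pbx2-205 start beyond the end of Gpsm3.

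Pbx3 had 84.2% of its TPM on Pbx3-206, a transcript of the nonsense-mediated decay class, in replicate 1, from few reads. In replicate 2 the leading one was Pbx3-201, the coding form of 434 residues, at 27.7%, followed by Pbx3-203, a coding fragment of 440 bases, at 26.0%, and by Pbx3-208, a retained-intron transcript, at 23.7%. Transcripts that encode its core held 0.41 TPM in replicate 1 and 3.88 TPM in replicate 2. Pbx3 thus remained higher in replicate 2 on this measure, by 1.79 in log2(TPM + 1).

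Pknox1 was led by Pknox1-201, at 61.4%, in replicate 1 and by Pknox1-205, at 44.3%, in replicate 2, with Pknox1-205 at 24.9% in replicate 1. Both encode the same 436 residues in GENCODE M21. In replicate 2 a further 21.98% of its TPM came from 3 counts on a transcript of 161 bases that is not in that annotation. The transcripts that encode the core held 8.57 and 9.88 TPM, a log2 difference of -0.19 against -1.03 for the whole gene. On the core-encoding transcripts Pknox1 therefore did not pass 2-fold between the libraries.

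**Figure D3:**
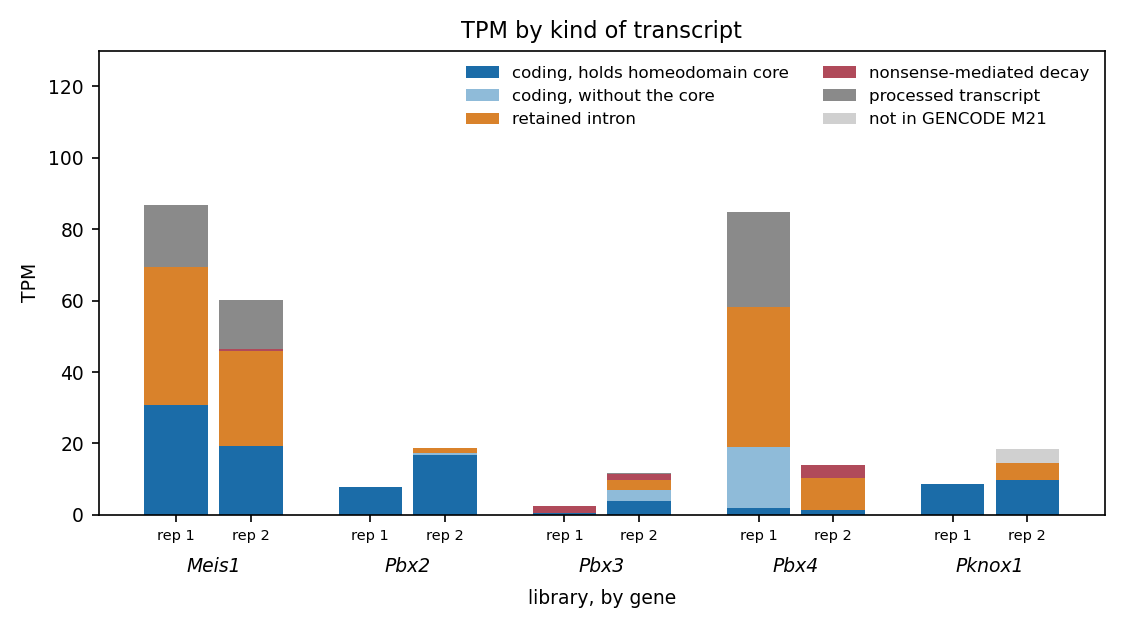
TPM of the 5 genes detected in both libraries, stacked by kind of transcript, for replicate 1 (rep 1) and replicate 2 (rep 2). The part that codes for the homeodomain core (dark blue) is 30.8 and 19.2 TPM in Meis1 and 1.86 and 1.46 TPM in Pbx4, although the whole bars of these genes are nearly equal in replicate 1.

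Across the 5 genes, 2 kept their leading transcript in both libraries, Meis1 and Pbx4, where 51.4% of 7364 coding genes with several transcripts did. In the same 2 genes protein coding transcripts held less than 50% of the TPM in both libraries, as they did in 16.6% of those 7364 genes, whose median coding share was 81.9% and 73.9%. The measure of core-encoding transcripts was chosen after the transcript values had been seen. By that measure the order was Meis1, Pknox1, Pbx2, Pbx4, Pbx3 in replicate 1 and Meis1, Pbx2, Pknox1, Pbx3, Pbx4 in replicate 2, so Meis1 led in both and Pbx4 stood among the lowest. Dividing the gene's whole count by the length of its longest coding transcript, another measure chosen after the values were seen, gave Meis1 39.3 and 26.7, Pbx4 23.8 and 7.05, and Pbx3 1.10 and 7.55 on the TPM scale. Meis1 was the highest in both libraries by all 3 measures.

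**Figure D4:**
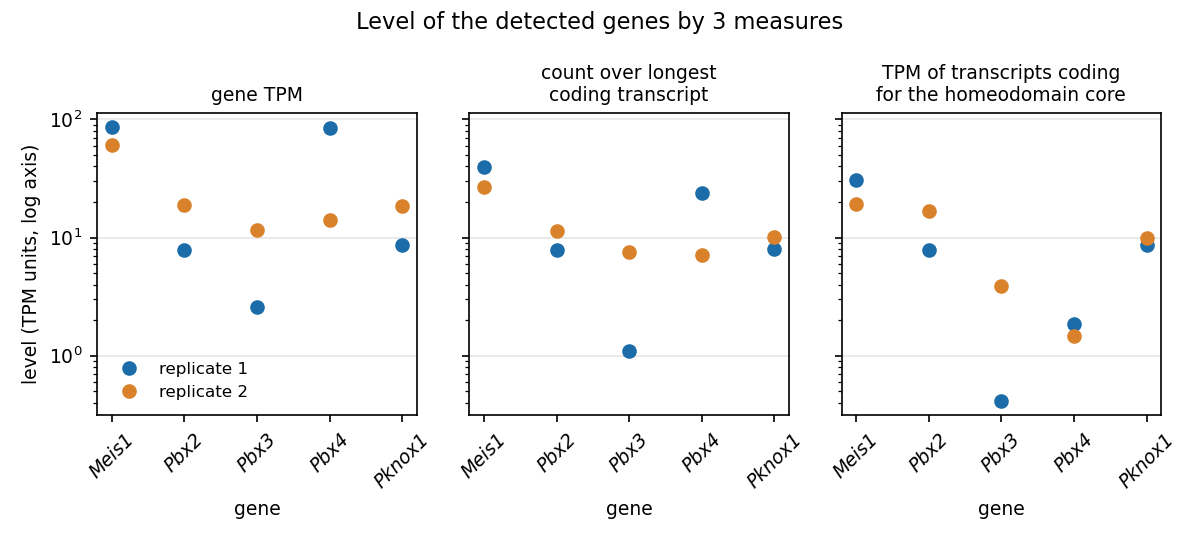
Level of the 5 genes detected in both libraries, on a log axis in TPM units, as gene TPM, as count over the longest coding transcript, and as TPM of transcripts that code for the homeodomain core, with 1 point per library. Meis1 is the highest in every panel, and Pbx4 falls from 84.9 TPM as a gene in replicate 1 to 1.86 TPM on the core-coding transcript.

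Ratios within a library do not depend on its depth, and they are given as log2 of TPM + 0.1. Meis1 over Pbx2 was 3.45 in replicate 1 and 1.67 in replicate 2, a mean of 2.56 ± 1.25 (SD, n = 2). Meis1 over Pbx3 was 5.02 and 2.37, a mean of 3.69 ± 1.87, and Meis1 over Pknox1 was 3.32 and 1.69, a mean of 2.51 ± 1.15. Meis1 was thus above Pbx2, Pbx3 and Pknox1 in both libraries, and by less in replicate 2. Meis1 over Pbx4 was 0.03 and 2.10, a mean of 1.06 ± 1.46, which did not differ from equal levels beyond the spread. On core-encoding transcripts that ratio was 3.98 and 3.63, a mean of 3.80 ± 0.25, and Meis1 over Pbx3 was 5.92 and 2.28, a mean of 4.10 ± 2.58. By the same measure Meis1 over Pknox1 was 1.83 and 0.95, a mean of 1.39 ± 0.62, and Meis1 over Pbx2 was 1.95 and 0.19, a mean of 1.07 ± 1.25. The lead of Meis1 over Pbx2 on these transcripts was thus within the spread of the libraries, with nearly equal levels in replicate 2.

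The summed Meis genes against the summed Pbx genes listed here gave -0.14 and 0.49 on the gene level, a mean of 0.17 ± 0.44 (SD, n = 2), and the 2 sums did not differ beyond the spread of the libraries. On core-encoding transcripts the ratio was 1.59 and -0.21, a mean of 0.69 ± 1.27, again within the spread. Pbx3 over Pbx2 was -1.57 and -0.69, a mean of -1.13 ± 0.62, with Pbx2 the higher in both libraries. Meis1 over Hoxa9, its Hox partner, was 1.04 and 1.32, a mean of 1.18 ± 0.20, the steadiest of the gene-level ratios computed between detected genes.

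Genes around the family were taken from 5 lists of 57 genes, of which 35 were detected in both libraries. Among 9 other TALE homeobox genes only Tgif1 and Tgif2, which encode repressors of retinoid and TGF-beta signalling, were detected, at 38.3 and 25.8 TPM and at 7.14 and 8.16 TPM. The Iroquois genes Irx1 to Irx6 and Mkx had no counts in either library. Of 21 Hoxa and Hoxb genes, which encode the DNA-binding partners of the family, 8 were detected in both. The highest were Hoxa9 at 42.1 and 24.1 TPM, Hoxa7 at 12.3 and 13.3 TPM, Hoxa3 at 17.0 and 7.02 TPM, and Hoxa6 at 9.87 and 6.15 TPM. Hoxb2 was detected in replicate 1 only, at 3.37 against 0.11 TPM, and Hoxb4 in replicate 2 only, at 0.14 against 1.11 TPM. The list's median was 0.14 and 0.48 TPM, and 6 of its genes had no counts in either library.

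All 4 chromatin regulators known to act upstream of Meis1 were detected in both libraries, and their values stayed close. Psip1, a chromatin tether, stood at 79.7 and 68.7 TPM. The methyltransferase genes Kmt2a, at 65.6 and 70.6 TPM, and Dot1l, at 61.2 and 71.3 TPM, and Men1, which encodes the adaptor menin, at 37.6 and 27.5 TPM, completed the list. None was over 2-fold apart between the libraries, where 27.1% of the genes detected in either library were, and 4 genes are too few to be set apart from that share. The list's median of 63.4 and 69.7 TPM was near the level of Meis1 itself.

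All 11 binding partners and coregulators were detected in each library, and their median was 42.4 and 29.6 TPM. The corepressor gene Ncor1 led the list, at 250.1 and 219 TPM. The deacetylase gene Hdac1, at 57.8 and 57.6 TPM, and the acetyltransferase gene Ep300, at 58.7 and 55.0 TPM, were among its highest. Over 2-fold higher in replicate 1 were 2 genes, named here after their values were seen. They were Pbxip1, which encodes a protein that binds Pbx proteins, at 13.2 and 5.28 TPM, and Creb1, a signal-dependent activator, at 64.1 and 29.6 TPM. Their counts were 1384 and 417 for Pbxip1 and 3910 and 1752 for Creb1, in libraries of 48307557 and 28945011 counts. Relative to these totals, without dividing by transcript length, neither passed 2-fold. None of the 11 genes was over 2-fold higher in replicate 2. Of all genes detected in either library, 13.1% were over 2-fold higher in replicate 1 and 14% in replicate 2. A list of 11 genes is too short to be set apart from these shares.

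Of 12 genes that have been linked to Meis1 as targets, 10 were detected in both, and the median of the 12 was 40.6 and 23.2 TPM. The highest were the progenitor factor gene Myb, at 187 and 196 TPM, the cyclin gene Ccnd3, at 149 and 135 TPM, the stem cell factor gene Hlf, at 162 and 98.0 TPM, and the receptor gene Flt3, at 58.6 and 42.9 TPM. Pf4, a platelet chemokine gene, was detected in replicate 2 only, at 9.67 TPM against no counts in the other library, and Epas1, a hypoxia factor gene, had no counts in either. Ccnd1, named after its value was seen, was over 2-fold higher in replicate 1 in TPM, at 48.6 against 4.57 TPM. Its counts were 543 and 235, in libraries of 48307557 and 28945011 counts. Relative to these totals, without dividing by transcript length, it did not pass 2-fold. The median difference of the list was 0.29 on the log2(TPM + 1) scale, against 0.10 over all genes.

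**Figure D5:**
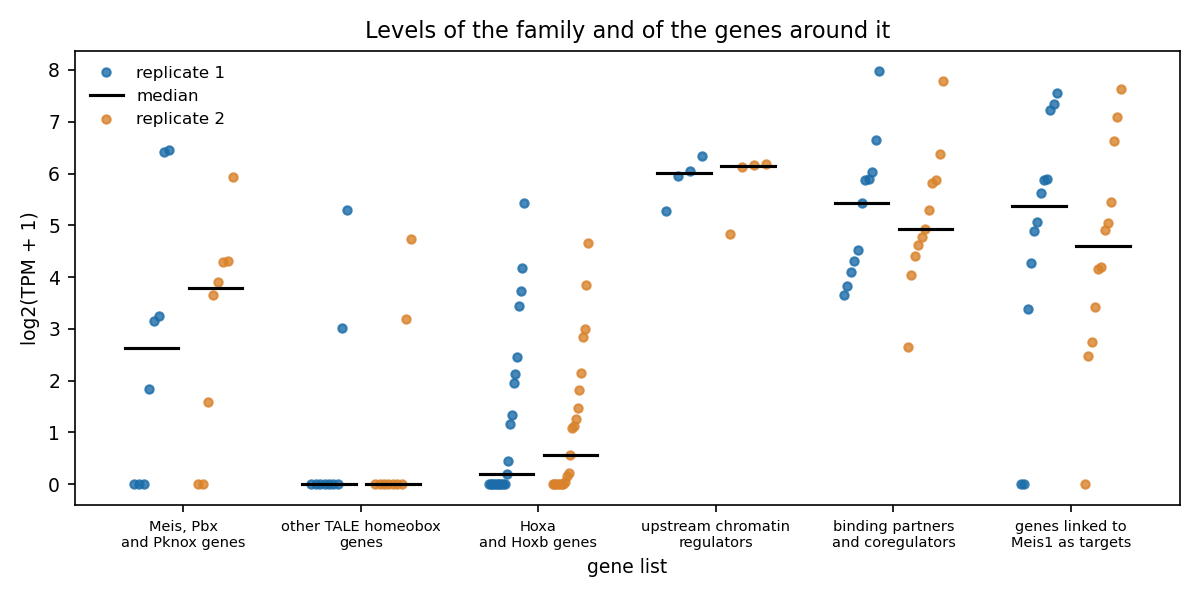
Level as log2(TPM + 1) of the 8 genes and of the 5 lists of genes around them, with 1 point per gene and library and a line at the median of each list. The chromatin regulators and the binding partners are all above 0 in both libraries, while 7 of 9 other TALE genes lie at 0.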

How the data were processed

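Gene and transcript tables of 2 libraries of 1 group were used. The authors deposited expected counts, in which a read that matches several genes or transcripts is divided among them. TPM and posterior mean TPM were deposited by the authors, with the bounds of an interval whose level is not stated. The percent of a gene's TPM on each transcript was deposited by the authors in the transcript tables. The column names are those RSEM writes, per the file headers, and the build (mm10) and annotation (M4) are per the text deposited with each sample. Aligner, version and strand handling: not given in the sources used here.

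Of 69691 entries, 26345 that name no Ensembl gene, 97 of them spike-in entries, were left out; their share of all expected counts was 0.0120% (replicate 1) and 0.00719% (replicate 2). Symbols came from a gene name table and matched 42462 of 43346 identifiers, all 8 genes among them. Positions, transcript classes and sequences are those of GENCODE M21 on GRCm38, a later release of the annotation. Of the 40 transcripts of the 5 detected genes, 39 matched it and 35 had the same length, and 3 of the 4 others are Pknox1 transcripts that encode the core, so the exon models of Pknox1 may differ.

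Computed here were detection (at least 1 TPM and a count of at least 10), mean and SD over 2 libraries, log2(TPM + 1) differences, which understate those of low genes, and ratios with a pseudocount of 0.1. CPM of rounded expected counts used TMM factors (edgeR 4.0.16) or DESeq2 1.42.0 size factors, with no count test. The calls were run only on simulated data of genes with high levels and counts, changed by more than the 2-fold threshold. They were not tested at the levels or counts of Meis3, Pbx2, Pbx3, Pbx4 or Pknox1. Python 3.11.15, pandas 2.3.3, Biopython 1.88 and matplotlib 3.10.9 were used. Alternatives were other thresholds and pseudocounts, posterior means, rescaling, and leaving out a library. Levels by longest coding transcript and by core-encoding transcripts were chosen after seeing the data.

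Named were every gene of the family, each transcript with at least 20% of a detected gene, of each list the 4 genes of highest mean TPM and up to 2 detected in 1 library only, and the 3 genes nearest to Meis1 in level; 1 gene that this rule names is not reported here. The genes and lists were chosen with earlier results of these data known.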

Additional observations from a re-analysis of the deposited data

How the results depend on the processing

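The count of 5 family genes detected in both libraries stayed between 4 and 6, and the 35 genes of the pathway lists between 30 and 38, under the alternatives tried, leaving out a library included. The 5 genes over 2-fold apart between the libraries became 3 with TMM factors or DESeq2 size factors and 2 on core-encoding transcripts. The share of all genes past 2-fold was not computed under these alternatives, so these counts cannot be set beside it. On core-encoding transcripts the mean log2 ratio was 1.07 for Meis1 to Pbx2, 3.80 for Meis1 to Pbx4, 0.69 for summed Meis to summed Pbx and -3.03 for Pbx3 to Pbx2. The 2 genes that kept their leading transcript became 1 when only protein coding transcripts were counted. The cause of these changes was not tested. Posterior mean TPM gave Meis2 a mean of 1.46 TPM and Pknox2 0.70 TPM, where the counts are 0, and moved Pknox1 just under 2-fold, at -0.999 in log2. The mean log2 ratio of summed Meis to summed Pbx, 0.17, was -0.14 without replicate 2 and 0.49 without replicate 1. Rescaling to nuclear protein coding genes moved the median log2 difference of all genes from 0.10 to -0.07. Without a filter on low values 8.54% of genes were over 2-fold apart, against 27.1% with it. Agreement of the leading transcript needs both libraries, so it has no value without replicate 1 or replicate 2. No paired analysis was possible because there is a single group. Depth limits the genes without counts to the bounds given.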

Other observations

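Annotated genes that lie within Meis1 and are not part of it had counts as well. On its strand Gm37818 stood at 7.55 and 5.58 TPM in replicates 1 and 2, 2900018N21Rik at 12.4 and 5.81 TPM and 2610001A08Rik at 14.5 and 21.1 TPM, all of the class of genes to be experimentally verified. On the other strand Gm16141 stood at 6.30 and 1.59 TPM and Gm16140 at 0 and 0.64 TPM. Meis1 had more counts than each of them in both libraries. Gpsm3, which overlaps the start of Pbx2, stood at 19.2 and 16.5 TPM, and C79798, which lies antisense to Pbx3, had no counts.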
